A study of Mus musculus with 40 samples.

Results

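RAB GTPases are small GTP-binding proteins that mark the membranes of a cell and direct the vesicles that move between them. Here they are the mouse genes whose symbol is Rab followed by a number, with a letter and further digits allowed, and whose mean over all 40 libraries was at least 1 CPM (the usual unit of counts relative to the library total, which was scaled here by TMM, the trimmed mean of M-values). Of 57010 gene identifiers in the table, 59 matched the symbol and 44 reached that level. Their values were then followed over 5 times and 2 genotypes. The rule uses the symbol and the overall level of a gene and not its change. The 2 members nearest above the limit were Rab42 at 1.01 CPM and Rab37 at 1.31 CPM, and the 2 genes nearest below it were Rab39 at 0.925 CPM and Rab15 at 0.560 CPM.

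The RNA came from bone marrow-derived macrophages, primary cells grown from mouse marrow in medium conditioned by L929 cells, which secrete the macrophage growth factor M-CSF. Cells of the genotype OtulinFL/FL are called WT here and carry a floxed Otulin gene without Cre. Cells of the genotype OtulinFL/FL LysMCreTg/WT are called KO and carry the same floxed gene together with Cre recombinase in the Lyz2 (LysM) locus, which is active in myeloid cells. Otulin is the deubiquitinase that cuts linear ubiquitin chains. Both genotypes were sampled before LPS (0 h) and 3, 6, 12 and 24 h after 500 ng/ml of ultrapure LPS from Salmonella minnesota, the bacterial lipopolysaccharide that is sensed by TLR4. Each genotype and time had 4 biological replicates, which gave 10 groups. Cre was always combined with the floxed gene, so loss of Otulin and presence of Cre cannot be told apart. The sequencing counted tags at the 3′ end of transcripts (QuantSeq 3′ mRNA FWD), and levels are therefore compared between samples and not between genes.

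The 40 libraries held 3615155 to 6829303 counts (median 4471933). By the mean over all 40 libraries, all 8 macrophage markers were at 1 CPM or more, while all 6 lymphoid and all 6 mast cell and basophil markers were below 1 CPM. Of the 6 red cell and platelet markers 4 were below 1 CPM, and the list summed to 527 to 840 CPM before LPS in WT and 652 to 947 CPM in KO. The dendritic cell markers (3 of 6 below 1 CPM) summed to at most 22.8 CPM in any library. The stromal markers (5 of 6 below 1 CPM) summed to at most 5.68 CPM. The summed neutrophil markers, 6 of 10 of which were below 1 CPM, lay between 39.3 and 51.3 CPM in the KO libraries of 3 h, against 67.8 to 82.1 CPM for WT. The 7 monocyte markers summed to 132 to 177 CPM before LPS and 435 to 603 CPM at 6 h in WT, and their part in the changes below was not tested. The 3′ tags of Otulin do not check the labels: group means spanned 30.6 to 48.8 CPM over the KO groups, against 32.3 to 42.5 CPM over the WT groups. The 10 libraries of WT replicate 4 and KO replicate 3 held 0.225 to 2.18 CPM of the X-inactivation RNA Xist and the other 30 libraries held 228 to 709 CPM, so the groups mix animals of both sexes. In bulk RNA of this kind, fewer cells of a type and less RNA per cell cannot be told apart.

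A RAB protein is inactive with GDP bound and active with GTP bound. Exchange factors (GEFs) load GTP and so place the RAB on a membrane, GTPase-activating proteins (GAPs) end the active state, and effectors such as tethers, motors and lipid kinases act while it lasts. Escort proteins present a new RAB for the attachment of lipid anchors, and GDI returns used RABs to the cytosol. In macrophages RAB5 governs early endosomes and young phagosomes, RAB7 their maturation and fusion with lysosomes, RAB20 and RAB32 take part in phagosome maturation, and RAB7B, RAB10 and RAB11 have been tied to the traffic of TLR4.

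Promoter sequences are shown for 4 members on which the results turn: Rab20, Rab12 and Rab29, which rose after LPS, and Rab40c, which fell early and exceeded its starting level at 24 h. Each runs 5′ to 3′ on the strand of the gene, from 250 bases before its RefSeq start to 50 bases after it, on GRCm38.p6, whereas the counts were made on GRCm39. Capitals mark a CACGTG E-box, a site bound by basic helix-loop-helix factors.
Rab20, chr8:11478591-11478890, minus strand: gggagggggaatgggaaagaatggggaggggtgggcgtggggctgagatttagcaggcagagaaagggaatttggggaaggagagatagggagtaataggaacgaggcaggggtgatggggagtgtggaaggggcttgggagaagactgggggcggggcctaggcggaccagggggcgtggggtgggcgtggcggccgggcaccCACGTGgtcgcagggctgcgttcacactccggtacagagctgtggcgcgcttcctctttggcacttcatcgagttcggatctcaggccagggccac
Rab12, chr17:66519621-66519920, minus strand: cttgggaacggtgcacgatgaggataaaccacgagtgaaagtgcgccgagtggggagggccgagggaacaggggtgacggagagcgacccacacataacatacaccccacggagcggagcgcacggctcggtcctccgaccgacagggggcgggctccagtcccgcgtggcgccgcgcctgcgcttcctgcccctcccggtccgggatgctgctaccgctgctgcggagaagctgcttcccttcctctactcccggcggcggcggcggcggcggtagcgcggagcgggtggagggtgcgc
Rab29, chr1:131867027-131867326, plus strand: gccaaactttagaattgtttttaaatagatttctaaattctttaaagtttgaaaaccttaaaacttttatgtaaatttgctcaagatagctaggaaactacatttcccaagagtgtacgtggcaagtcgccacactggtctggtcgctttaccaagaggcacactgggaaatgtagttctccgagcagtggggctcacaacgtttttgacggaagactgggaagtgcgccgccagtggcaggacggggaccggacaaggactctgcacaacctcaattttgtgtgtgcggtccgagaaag
Rab40c, chr17:25919665-25919964, minus strand: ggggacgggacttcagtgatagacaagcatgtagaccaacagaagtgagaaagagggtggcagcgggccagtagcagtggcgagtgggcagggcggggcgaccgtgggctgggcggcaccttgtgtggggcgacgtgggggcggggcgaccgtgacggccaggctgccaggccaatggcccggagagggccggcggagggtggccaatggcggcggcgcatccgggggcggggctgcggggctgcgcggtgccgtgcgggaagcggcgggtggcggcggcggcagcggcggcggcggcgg

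RefSeq promoter windows matched 38 of the 44 members, with 47 windows between them. Rab7b, Rab2a, Rab18, Rab4a, Rab38 and Rab37 had no entry. The windows were searched on both strands for 5 motifs. The E-box CACGTG was in 7.15% of all 32851 windows and in 6 of the 47 RAB windows, 1 each of Rab20, Rab21, Rab23, Rab24, Rab27a and Rab5a. In Rab20 it starts 46 bases before the start site. The interferon-type element, GAAA, any 2 bases and GAAA again, was in 3.44% of all windows and, among RABs, in that of Rab19. The AP-1 site TGANTCA was in 7.81% of all windows and in that of Rab34, and the κB motif in 4.51% and in that of Rab28. The ETS-type site GAGGAAGT was in 3.20% of all windows and in those of Rab2b and Rab32. No RAB gene matched more than 1 motif, so no matches overlapped. These are matches of letters only: the promoters of Rab12, Rab29 and Rab40c printed above held none of the 5 motifs.

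Most tested RAB genes changed after LPS with TMM in both genotypes, and so did a large share of all genes. How many RAB genes changed, and how many rose, depends on the scaling, and the counts and shares are given below. With TMM, the summed RAB level in WT had a mean of 4812 CPM (4622 to 4982 over 4 libraries) before LPS, 5518 CPM (5432 to 5615) at 3 h, 6637 CPM (6322 to 6922) at 6 h, 7117 CPM (7013 to 7231) at 12 h and 6653 CPM (6584 to 6757) at 24 h. As a plain share of the library, the same sum was 0.597% (0.585 to 0.607) before LPS, 0.549% (0.538 to 0.560) at 3 h, 0.593% (0.575 to 0.603) at 6 h, 0.675% (0.655 to 0.694) at 12 h and 0.678% (0.672 to 0.686) at 24 h. The 3 h libraries were thus above those of 0 h by TMM and below them by share of the library, without overlap in either case, whereas 12 h and 24 h were above 0 h by both. KO libraries gave the same pair of orders, from a mean of 5025 CPM and 0.623% before LPS to 5776 CPM and 0.561% at 3 h and 7598 CPM and 0.698% at 12 h.

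**Figure D1:**
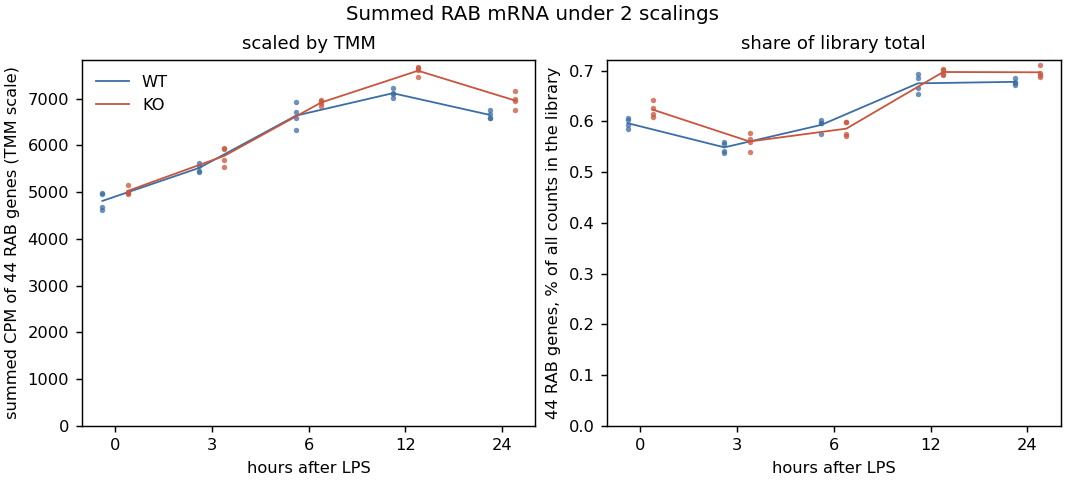
Sum of the 44 RAB genes in each library, as TMM-scaled CPM and as percent of the library's counts, for WT and KO before LPS and 3, 6, 12 and 24 h after it (times are evenly spaced on the axis, points are libraries, n = 4 per group). The 3 h libraries lie above the 0 h libraries by TMM and below them by share of the library, while the 12 h and 24 h libraries lie above them on both scales.

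Each member was then tested at each time against 0 h with edgeR's quasi-likelihood test and Benjamini-Hochberg adjustment over all genes, and a gene was called at an adjusted p under 0.05. In WT, 21 of 42 tested members were called higher and 6 lower at 3 h, where 26.6% and 28.0% of all genes were. At 6 h the counts were 27 and 8 (31.0% and 37.1% of all genes), at 12 h 26 and 4 (32.3% and 35.9%), and at 24 h 27 and 4 (34.5% and 35.4%). The median log2 change of the members was 0.20, 0.41, 0.33 and 0.39 at the 4 times, that of all genes tested -0.05, -0.09, -0.07 and -0.02. Scaling by library totals alone shifted the median of all genes to -0.40, -0.59, -0.47 and -0.32 and turned the RAB counts into 7 higher and 18 lower at 3 h (15.3% and 56.7% of all genes), 15 and 18 at 6 h (17.6% and 63.9%), 13 and 11 at 12 h (19.5% and 56.9%), and 16 and 10 at 24 h (22.7% and 49.2%). A change is therefore written below as firm where the member was called in the same direction by all 3 scalings, TMM, DESeq2's size factors and library totals. By that rule the WT increases and decreases numbered 7 and 5 at 3 h (15.3% and 23.4% of all genes), 15 and 7 at 6 h (17.6% and 31.3%), 13 and 3 at 12 h (19.5% and 31.3%), and 16 and 4 at 24 h (22.7% and 31.6%).

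The KO libraries were tested in the same way. Of 43 tested members, TMM called 19 higher and 7 lower at 3 h (22.9% and 25.7% of all genes), 25 and 8 at 6 h (28.7% and 36%), 29 and 3 at 12 h (30.7% and 34.0%), and 26 and 5 at 24 h (32.8% and 33.0%). On library totals they were 4 and 15 at 3 h (13.9% and 51.5% of all genes), 12 and 19 at 6 h (16.3% and 64.6%), 10 and 10 at 12 h (18.3% and 55.3%), and 14 and 11 at 24 h (21.1% and 46.9%). All 3 scalings called 4 higher and 5 lower at 3 h (13.9% and 21.2% of all genes), 12 and 8 at 6 h (16.2% and 30.7%), 10 and 3 at 12 h (18.3% and 29.8%), and 14 and 4 at 24 h (21.1% and 29.7%). The KO counts at 3 h lean on single libraries: TMM called 11 higher without replicate 2, and 3, 4 and 4 lower without replicates 1, 2 and 3.

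Over the 4 times in WT with TMM, 17 members were called higher at every time: Rab1a, Rab10, Rab7, Rab5c, Rab6a, Rab11a, Rab12, Rab8b, Rab21, Rab8a, Rab18, Rab22a, Rab5a, Rab5b, Rab9, Rab20 and Rab29. Of all genes, 15.8% were called higher at every time with TMM. On library totals 5 members were, where 9.27% of all genes were. A further 12 were called higher at 1 to 3 times and never lower: Rab14, Rab2a, Rab32, Rab24, Rab35, Rab43, Rab4b, Rab33b, Rab13, Rab19, Rab27a and Rab38. Rab24 meets Prelid1, which had 126.5% of its counts, tail to tail on the opposite strand, so its tags are less certain. Rab6b was called lower at every time (13.2% of all genes with TMM), and Rab34, Rab23 and Rab4a at some times and never higher. Another 6 members were called lower at some time and higher at another: Rab7b, Rab31, Rab11b, Rab3d, Rab40c and Rab3a. Rab28, Rab1b and Rab2b were called at no time, and Rab37 and Rab42 had too few counts to be tested. The WT mean was highest before LPS for 4 members, at 6 h for 18, at 12 h for 9 and at 24 h for 13. Apart from calls at every time, the shares of all genes with these patterns and peak times were not computed. Those counts therefore describe the members only.

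**Figure D2:**
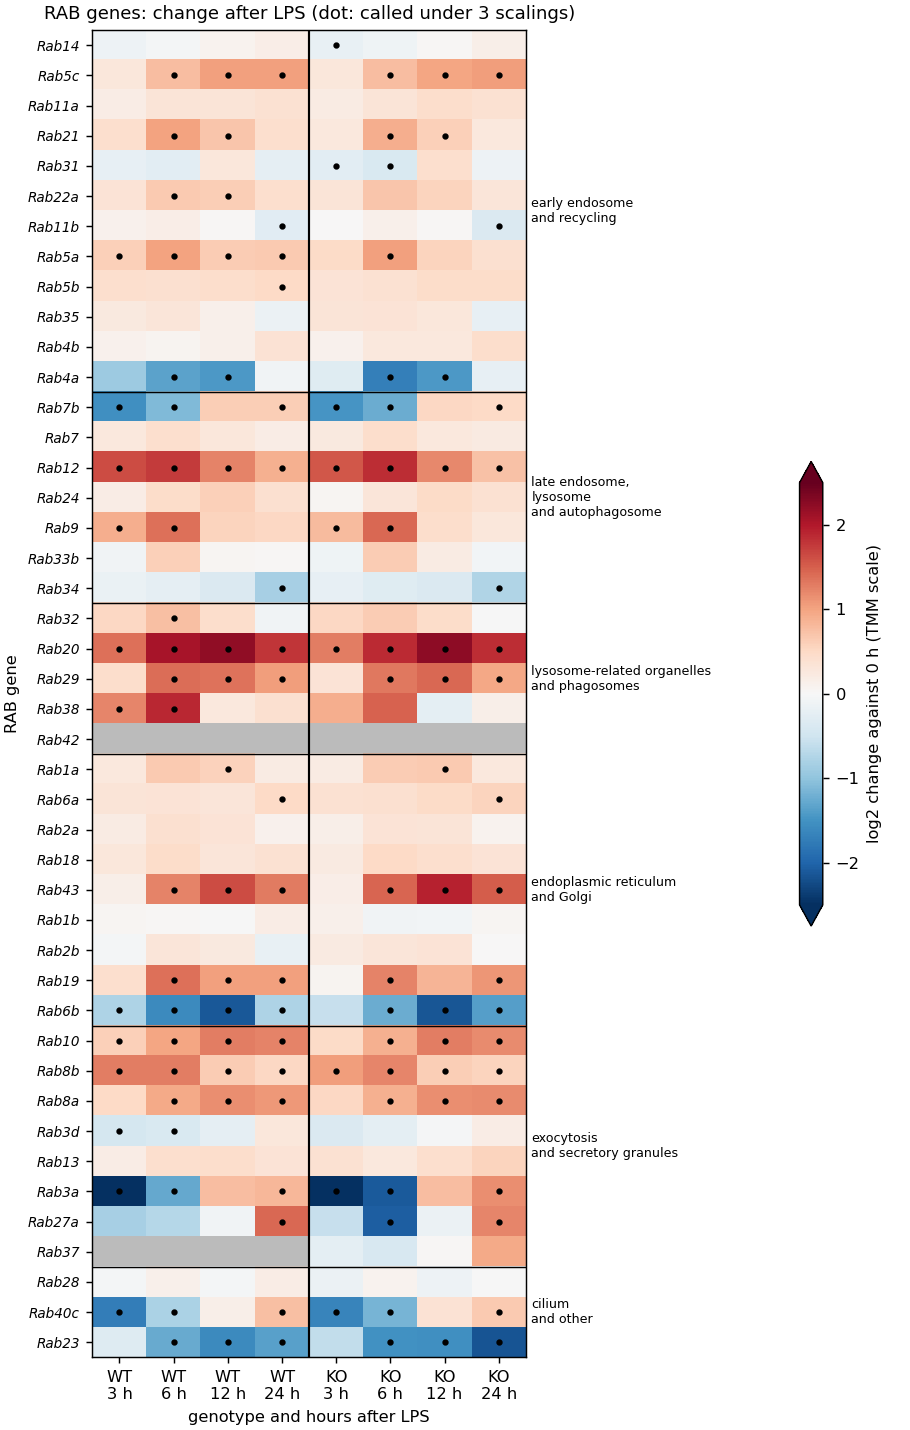
Log2 change against 0 h (TMM) of the 44 RAB genes, grouped by role, at 3, 6, 12 and 24 h in WT and KO, with the colour scale capped at 2.5 either way. Dots mark changes called in the same direction by all 3 scalings, grey marks genes not tested, and changes without a dot were not called in 1 direction by all 3 scalings. Rab7b, Rab40c and Rab3a are blue at 3 h and 6 h and red at 24 h, while Rab20 is red at all 4 times.

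RABs of lysosome-related organelles and phagosomes were led by Rab20, which acts in phagosome maturation and was among the firm increases at all 4 times in both genotypes. In WT its level was 15.3, 15.7, 15.2 and 17.9 CPM in replicates 1 to 4 before LPS, 36.6, 39.2, 40.4 and 46.5 CPM at 3 h and 58.4, 67.03, 73.3 and 63.6 CPM at 6 h. At 12 h it was 80.7, 72.5, 78.2 and 63.2 CPM and at 24 h 60.4, 61.8, 53.4 and 44.3 CPM. No library after LPS came down to the level before it. The log2 change was 1.38 ± 0.12 at 3 h (SE here and below, edgeR adjusted p = 1.1e-10), 2.06 ± 0.11 at 6 h and 2.21 ± 0.11 at 12 h, and 1.79 ± 0.11 at 24 h. KO libraries ran from 13.99 to 18.5 CPM before LPS to 70.9 to 84.4 CPM at 12 h, a log2 change of 2.23 ± 0.12.

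Rab29, a RAB of the trans-Golgi and lysosomes that recruits the kinase LRRK2, rose more slowly. Its WT level was 21.6, 22.5, 24.8 and 23.3 CPM before LPS, 29.1, 30.5, 33.9 and 28.5 CPM at 3 h and 60.8, 53.2, 61.4 and 63.1 CPM at 6 h, and it was 41.1 to 52.5 CPM at 24 h. The 6 h values were all above the highest 3 h value, and 24 h stayed above 0 h without overlap. Its log2 change was 1.40 ± 0.095 at 6 h (edgeR adjusted p = 8.52e-13), 1.36 ± 0.095 at 12 h and 1.05 ± 0.095 at 24 h, firm at all of these times. At 3 h the change of 0.44 ± 0.10 passed with TMM and was not among the firm ones. In KO it was 1.32 ± 0.15 at 6 h and 1.44 ± 0.15 at 12 h.

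Rab32, which controls lysosome-related organelles and phagosomes, rose and came back. Its WT level was 165, 184, 174 and 172 CPM before LPS and 299, 299, 290.1 and 253 CPM at 6 h. By 24 h it was 169, 169.9, 163 and 143 CPM, which overlaps the level before LPS. The change of 0.75 ± 0.087 at 6 h was firm in WT (edgeR adjusted p = 2.6e-08), whereas that at 24 h was -0.09 ± 0.087 (edgeR adjusted p = 0.365). From 3 h to 24 h it fell in both genotypes, by 0.61 on the log2 scale in WT and 0.52 in KO. Its close relative Rab38 was counted near the limit of 1 CPM and showed a firm rise of 1.21 ± 0.35 at 3 h and 1.88 ± 0.33 at 6 h in WT, with 0.27 ± 0.39 at 12 h. All 4 tested members of the role were called higher by all 3 scalings at 6 h in WT (17.6% of all genes). The median log2 change was 1.64. In KO at 6 h, 2 of 4 were called higher by all 3 scalings (16.2% of all genes), with a median of 1.40.

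Among late endosome, lysosome and autophagosome RABs, Rab12 had the largest early rise. RAB12 directs membrane proteins from recycling endosomes to lysosomes. The WT libraries held 116, 108, 113 and 120.2 CPM before LPS, 341, 316, 345 and 374 CPM at 3 h and 379, 343, 412 and 375 CPM at 6 h. They held 256, 273, 269 and 272 CPM at 12 h and 191, 208, 217 and 226 CPM at 24 h. The peak at 3 h and 6 h was thus followed by a partial return, with every LPS library still above every library of 0 h. On the log2 scale the change was 1.63 ± 0.071 at 3 h (edgeR adjusted p = 1.23e-16), 1.75 ± 0.071 at 6 h and 0.90 ± 0.071 at 24 h, and between 3 h and 24 h the level fell by 0.73. KO changed by 1.56 ± 0.081, 1.85 ± 0.081 and 0.73 ± 0.08 at the same times.

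Rab9, which returns mannose 6-phosphate receptors from late endosomes to the Golgi, peaked at 6 h. WT levels were 29.3, 31.8, 32.6 and 32.7 CPM before LPS, 83.8, 84.4, 83.7 and 67.4 CPM at 6 h and 46.1, 41.8, 53.2 and 37.6 CPM at 24 h. The 6 h group did not overlap the others, although replicate 4 lay below its 3 partners. The log2 change at 6 h was 1.37 ± 0.11 in WT (edgeR adjusted p = 4.97e-11) and 1.43 ± 0.13 in KO, firm in both.

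Rab7b moved the other way. It is a late endosomal RAB that carries cargo to the trans-Golgi and, in macrophages, lowers TLR4 signalling. Its WT level was 499.6, 502, 504 and 568 CPM before LPS, 186, 158, 196 and 154 CPM at 3 h and 177, 256, 225 and 292 CPM at 6 h. It was then 717, 839.7, 753 and 844 CPM at 12 h and 782, 797, 728 and 811 CPM at 24 h. The early libraries all lay below those of 0 h and the late ones all above them. The log2 change was -1.54 ± 0.11 at 3 h (edgeR adjusted p = 1.55e-11) and -1.09 ± 0.11 at 6 h, and 0.61 ± 0.11 at 24 h, all firm. The step from 3 h to 24 h was 2.15 ± 0.11 in WT and 1.97 ± 0.082 in KO.

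Rab7, the main RAB of late endosomes and lysosomes, moved little, and its direction depends on the scaling. WT levels were 319, 315, 362 and 345 CPM before LPS, 417, 441, 491 and 416 CPM at 6 h and 397, 363, 370.3 and 374 CPM at 24 h. On TMM the 6 h libraries were all above those of 0 h. The log2 change at 6 h was 0.43 ± 0.065 with TMM (edgeR adjusted p = 2.04e-06) and -0.08 on library totals. Rab34, tied to lysosome positioning and ciliogenesis, was at 10.9, 10.3, 12.6 and 10.5 CPM before LPS and 6.21, 4.22, 7.94 and 5.76 CPM at 24 h in WT, with no overlap. It fell firmly at 24 h, by 0.83 on the log2 scale in WT (edgeR adjusted p = 0.000368) and by 0.75 in KO. Of the 7 members of the role in WT at 6 h, TMM called 5 higher and 1 lower (31.0% and 37.1% of all genes). All 3 scalings called 2 and 1 (17.6% and 31.3%), and the median log2 change was 0.46. The autophagy RABs Rab24 (83.9 to 168 CPM over the 40 libraries) and Rab33b (9.25 to 23.3 CPM) had no firm change in WT.

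**Figure D3:**
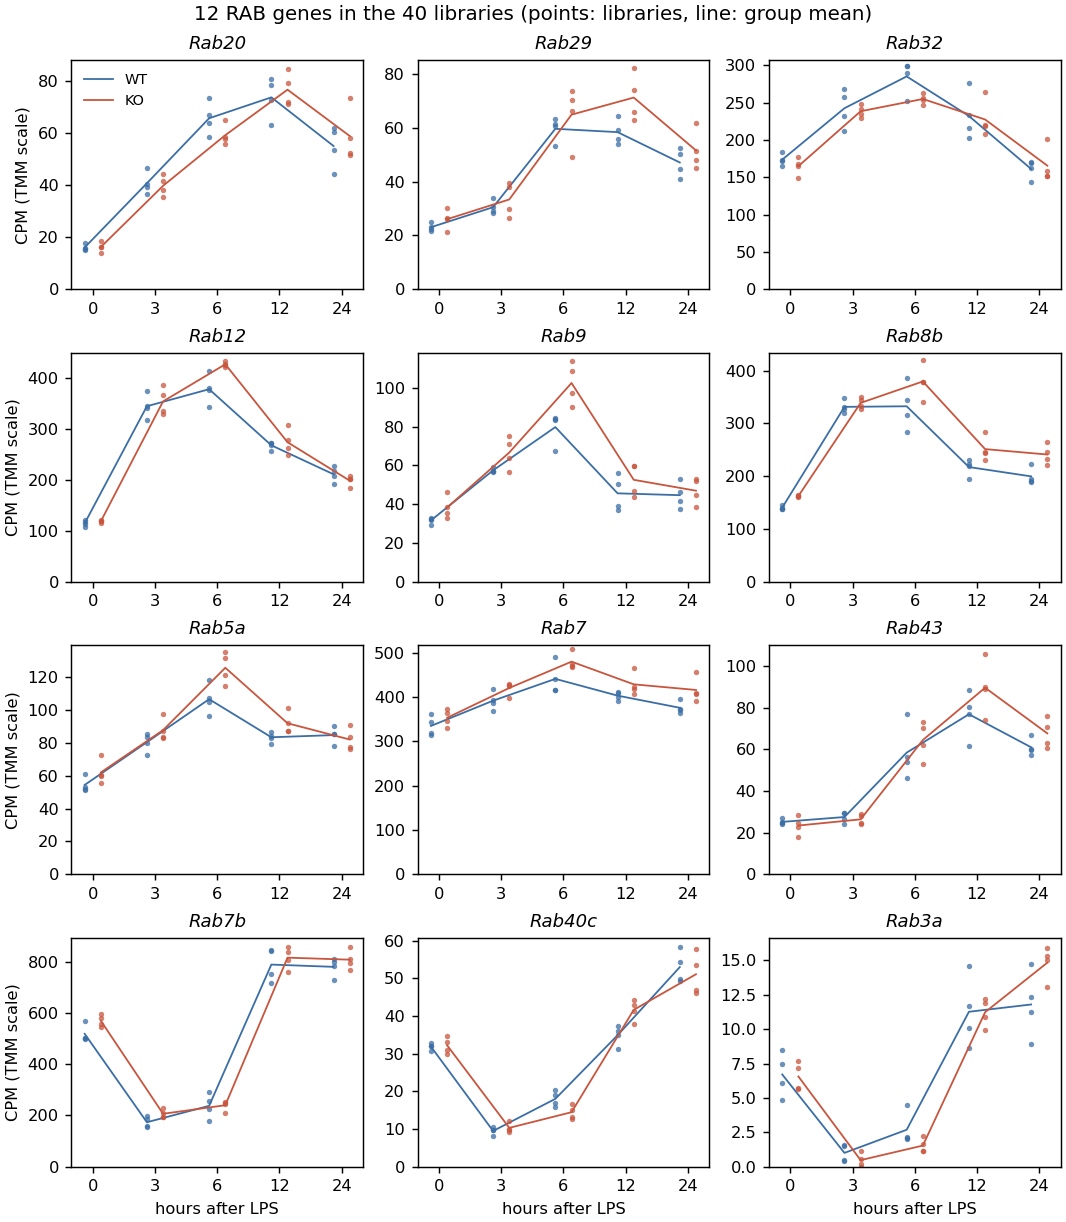
TMM-scaled CPM in each library of 12 RAB genes before LPS and 3, 6, 12 and 24 h after it, WT and KO side by side (evenly spaced times, points are libraries, n = 4 per group). Rab12 and Rab8b peak at 3 h to 6 h, Rab20, Rab29 and Rab43 stay high to 24 h, and Rab7b, Rab40c and Rab3a dip at 3 h and are above 0 h at 24 h. The rise of Rab7 in this plot is not kept on library totals.

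Early endosome and recycling RABs held 4 firm increases and 1 firm decrease among 12 members at 6 h in WT (17.6% and 31.3% of all genes). Rab5a, which with its paralogs governs the entry into early endosomes, was at 52.1, 53.1, 51.5 and 60.97 CPM before LPS, 105, 107, 118 and 96.3 CPM at 6 h and 90.5, 85.3, 85.3 and 78.2 CPM at 24 h in WT. Neither group after LPS overlapped the group before it. The fitted change on the log2 scale was 0.60 ± 0.077 at 3 h, 1.00 ± 0.076 at 6 h (edgeR adjusted p = 8.75e-12) and 0.66 ± 0.076 at 24 h, firm in WT at all 4 times. In KO the 6 h change of 1.02 ± 0.092 was firm, while those at the other 3 times were called with TMM and not by all 3 scalings.

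Rab5c, a second RAB5, rose later: its log2 change in WT was 0.77 ± 0.075 at 6 h, 1.02 ± 0.075 at 12 h and 1.02 ± 0.075 at 24 h, firm at these times. At 3 h it was 0.28 ± 0.075 with TMM and turned negative on library totals. Rab21, an endosomal RAB that carries integrins, changed by 1.01 ± 0.062 at 6 h and 0.69 ± 0.062 at 12 h in WT, both firm. Rab4a, of the fast recycling route, fell firmly at 6 h and 12 h, by 1.34 and 1.43 on the log2 scale in WT, and stood at -0.09 ± 0.33 at 24 h (edgeR adjusted p = 0.827). Rab11b, a recycling endosome RAB, fell firmly at 24 h in both genotypes, by 0.28 in WT and 0.36 in KO. Of the 12 members, TMM called 8 higher and 2 lower at 6 h in WT (31.0% and 37.1% of all genes). All 3 scalings called 4 and 1 (17.6% and 31.3%), and the median log2 change was 0.31. The members not yet described, Rab14 (407 to 563 CPM over the 40 libraries), Rab11a (224 to 361), Rab31 (101 to 247), Rab22a (81.8 to 147), Rab5b (45.1 to 90.6), Rab35 (44.7 to 79.6) and Rab4b (12.1 to 24.1), serve early and recycling endosomes, and of them Rab22a at 6 h and 12 h and Rab5b at 24 h rose firmly in WT. In KO none of them rose firmly against 0 h, while Rab14 at 3 h and Rab31 at 3 h and 6 h fell firmly.

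The RABs of the endoplasmic reticulum and Golgi held members with large changes beside the abundant Rab1a, which moves cargo from the reticulum to the Golgi. Rab43, also placed on this route, was at 26.8, 24.5, 24.99 and 24.3 CPM before LPS and 26.6, 24.1, 29.6 and 29.5 CPM at 3 h in WT, which overlap. It was at 45.99, 53.98, 56.5 and 77.1 CPM at 6 h and 61.7, 76.8, 80.3 and 88.5 CPM at 12 h. These groups lay wholly above 0 h. The log2 change was 0.16 ± 0.14 at 3 h (edgeR adjusted p = 0.354), 1.24 ± 0.13 at 6 h (edgeR adjusted p = 3.62e-09) and 1.63 ± 0.13 at 12 h, firm from 6 h on. KO gave 1.46 ± 0.14 and 1.92 ± 0.13 at 6 h and 12 h. A gene that overlaps the 3′ end of Rab43 on the same strand, Gm45140, carried 5.06% of its counts.

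Rab19, a Golgi RAB of low level, was at 7.33, 3.83, 5.13 and 4.15 CPM before LPS and 15.6, 14.8, 11.9 and 10.2 CPM at 6 h in WT, without overlap, and changed by 1.38 ± 0.22 (edgeR adjusted p = 4.47e-06). Rab6b, a retrograde transport RAB best known from neurons, fell at every time, by 0.78, 1.60, 2.11 and 0.77 on the log2 scale in WT, firm each time. The change of Rab1a was firm at 12 h, at 0.57 ± 0.08 in WT and 0.66 ± 0.076 in KO, but at 3 h and 24 h its small TMM rise turned negative on library totals. Of the 9 members, TMM called 6 higher and 1 lower at 6 h in WT (31.0% and 37.1% of all genes). All 3 scalings called 2 and 1 (17.6% and 31.3%), and the median log2 change was 0.40. Among the remaining members, Rab6a (241 to 385 CPM over the 40 libraries) rose firmly at 24 h in both genotypes. Rab2a (188 to 279.7 CPM), Rab18 (128 to 229 CPM), Rab1b (24.3 to 42.1 CPM) and Rab2b (8.22 to 15.8 CPM) had no firm change in either genotype.

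Exocytosis and granule RABs divided into early and late members. Rab8b, which with Rab8a carries vesicles to the plasma membrane, was at 140.5, 138, 138 and 145 CPM before LPS, 326, 348, 320.1 and 330.5 CPM at 3 h and 195, 224, 190.2 and 189 CPM at 24 h in WT. No library after LPS overlapped those before it, and those of 24 h were all below those of 3 h. It changed by 1.28 ± 0.08 at 3 h (edgeR adjusted p = 2.4e-13) and 0.52 ± 0.08 at 24 h. Rab10, which carries TLR4 to the surface of macrophages, rose by 0.59 ± 0.068 at 3 h, 1.28 ± 0.068 at 12 h and 1.25 ± 0.068 at 24 h. Rab8a rose by 0.95 ± 0.079 at 6 h and 1.15 ± 0.078 at 12 h. All of these WT changes were firm. An antisense gene at Rab10, Rab10os, carried 7.84% of its counts, and the sources used here do not state how strand was handled.

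The granule RABs Rab3a and Rab3d act in regulated secretion. Rab3a was at 6.08, 4.83, 7.45 and 8.46 CPM before LPS, 0.451, 0.492, 1.51 and 1.57 CPM at 3 h and 11.2, 8.89, 12.3 and 14.8 CPM at 24 h in WT, and the 3 h libraries rest on 2, 3, 6 and 6 counts. In KO the 3 h libraries held 1, 4, 0 and 3 counts. The groups of 0 h and 3 h did not overlap in either genotype, nor did those of 0 h and 24 h. Its log2 change was -2.77 ± 0.35 at 3 h (edgeR adjusted p = 2.23e-07) and 0.83 ± 0.23 at 24 h in WT, and -3.94 ± 0.38 and 1.17 ± 0.22 in KO, all firm. At its 3′ end Rab3a meets Mpv17l2 on the opposite strand, a gene with 261.61% of its counts, and a sharing of tags was not tested.

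Rab3d was at 33.2, 33.8, 35.4 and 31.4 CPM before LPS, 25.3, 25.1, 23.3 and 22.5 CPM at 3 h and 37.00, 39.99, 41.9 and 42.7 CPM at 24 h in WT. It lay below 0 h at 3 h and above it at 24 h, without overlap. The fall at 3 h was firm in WT, at -0.43 ± 0.10 (edgeR adjusted p = 0.000625), while the rise at 24 h of 0.29 ± 0.094 turned to -0.01 on library totals. Rab27a, which docks secretory granules, rose firmly at 24 h, by 1.44 ± 0.28 in WT and 1.22 ± 0.30 in KO. At 24 h in WT, TMM called 6 of the 7 tested members of the role higher and 0 lower (34.5% and 35.4% of all genes). All 3 scalings called 5 higher (22.7%), and the median log2 change was 0.83. At 6 h TMM called 4 higher and 2 lower (31.0% and 37.1%). Rab13, tied to tight junctions and actin, ranged from 7.48 to 16.3 CPM and had no firm change against 0 h.

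Rab40c differs from the other members in carrying a SOCS box, through which it serves as an adaptor of a cullin ubiquitin ligase. Its WT level was 30.8, 32.1, 32.8 and 31.9 CPM before LPS, 9.70, 8.03, 9.79 and 10.5 CPM at 3 h and 16.9, 15.8, 18.9 and 20.5 CPM at 6 h. At 12 h it was 36.1, 34.9, 31.2 and 37.4 CPM and at 24 h 49.9, 49.3, 54.5 and 58.3 CPM. The 3 h and 6 h libraries were all below those of 0 h, and the 24 h libraries all above them. It changed by -1.72 ± 0.11 at 3 h (edgeR adjusted p = 6.77e-13), -0.79 ± 0.10 at 6 h and 0.75 ± 0.091 at 24 h, all firm, and by -1.65 ± 0.12, -1.15 ± 0.12 and 0.65 ± 0.10 in KO. Rab23, which acts in hedgehog signalling and cilia, fell firmly from 6 h on, by 1.26, 1.59 and 1.36 on the log2 scale in WT. Rab28, the last of the role, ranged from 34.2 to 59.9 CPM and was called at no time in either genotype.

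Late and early time points were also compared directly. From 3 h to 24 h, TMM called 15 members higher and 9 lower in WT (33.9% and 34.5% of all genes) and 16 and 9 in KO (32.6% and 32.2%), and all 3 scalings called 15 and 8 in WT (31.8% and 31.4%) and 15 and 9 in KO (31.0% and 30.2%). Paralogs of 1 subfamily can be set against each other within a library, where scaling cancels. The ratio of Rab7b to Rab7 counts in WT averaged 1.55 before LPS, 0.441 at 3 h, 0.530 at 6 h, 1.95 at 12 h and 2.07 at 24 h. The ratio of Rab8b to Rab8a averaged 1.34, 2.29, 1.66, 0.936 and 0.907 at these times. Rab7b thus gained on Rab7 between 3 h and 24 h, whereas Rab8b lost ground to Rab8a.

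Between 3 h and 24 h the log2 ratio of Rab7b to Rab7 moved by 2.23 in WT and 1.99 in KO, and that of Rab3a to Rab3d by 2.84 and 4.74. The Rab3a values rest on the few counts at 3 h given above, with 0.5 added, and with 1 added they were 2.69 and 4.31. At 3 h, KO replicate 3 had a log2 ratio of Rab3a to Rab3d of -8.60, against -5.71 to -4.60 in its partners. The log2 ratio of Rab8b to Rab8a moved by -1.34 in WT and -1.16 in KO, that of Rab5a to Rab5c by -0.68 and -0.84, and that of Rab11b to Rab11a by -0.57 and -0.54. In each of these the 4 libraries of 3 h and the 4 of 24 h did not overlap, and the two-sided exact permutation p of 0.0286 is the smallest that 4 against 4 can give. Adjusted over the 20 tests of 10 pairs and 2 genotypes it is 0.052, so none passed 0.05. Rab6b to Rab6a moved by -0.16 in WT (exact permutation p = 0.686) and by -1.03 in KO (exact permutation p = 0.0286).

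**Figure D4:**
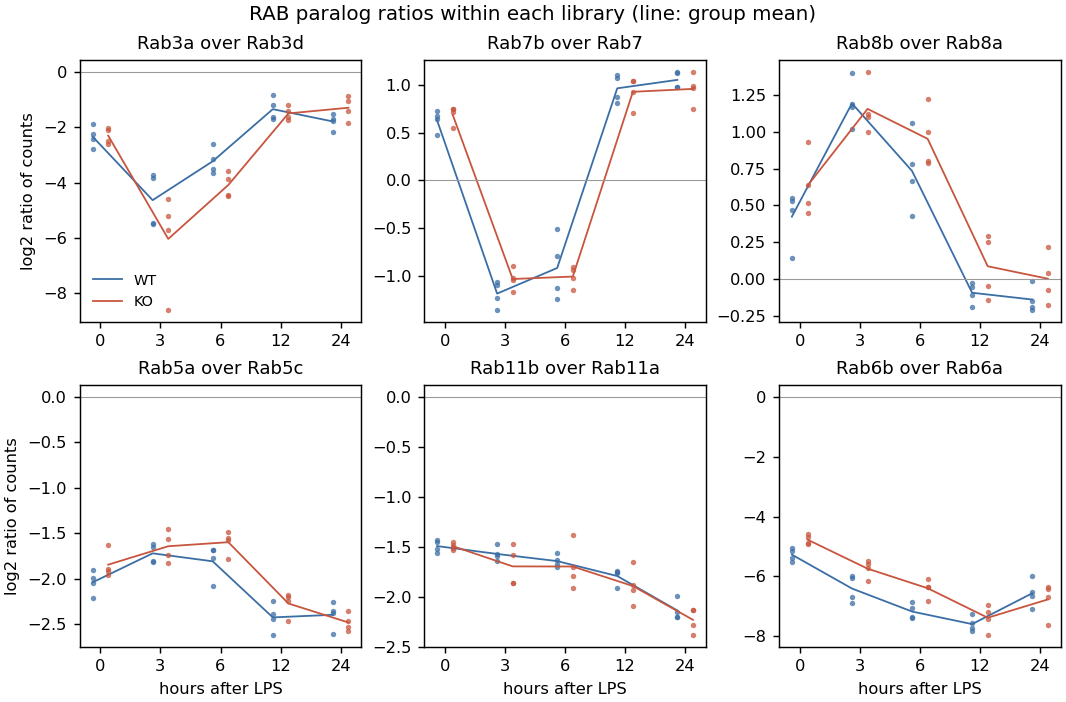
Log2 ratio of 6 pairs of paralogous RAB genes within each library, from counts with 0.5 added, for WT and KO before LPS and 3, 6, 12 and 24 h after it (evenly spaced times, points are libraries, n = 4 per group). Rab7b over Rab7 and Rab3a over Rab3d are low at 3 h and high at 24 h, whereas Rab8b over Rab8a and Rab5a over Rab5c are higher at 3 h than at 24 h.

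KO was set against WT separately for every time, with 8 libraries per fit. edgeR called 0 of the tested RAB genes (41, 40, 39, 38 and 43 members at 0, 3, 6, 12 and 24 h), where it called 0.0%, 0.689%, 1.01%, 0.0464% and 0.0809% of all genes. At an unadjusted p under 0.05 there were 5, 2, 7, 4 and 3 members, where 7.67%, 11.7%, 12.0%, 7.72% and 7.46% of all genes passed. DESeq2, and edgeR without the filter on low counts, each called 1 member, Rab9 at 6 h, and 0 at the other times. Without WT replicate 4 and KO replicate 3, a choice made after seeing the data, edgeR also called 0 at every time. The log2 difference lay within 0.3 either way for 39 of 41 members at 0 h, 36 of 40 at 3 h, 34 of 39 at 6 h, 37 of 38 at 12 h and 40 of 43 at 24 h, with a median SE of 0.085 to 0.11. The extremes were members of low level, from -0.74 for Rab23 at 24 h to 0.84 for Rab6b at 6 h.

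The smallest adjusted p belonged to Rab9 at 6 h. Its levels there were 83.8, 84.4, 83.7 and 67.4 CPM in WT and 109, 90.03, 114 and 97.3 CPM in KO. The KO libraries were all above the WT libraries, on TMM and on library totals. The log2 difference was 0.35 ± 0.095 (edgeR adjusted p = 0.106), and 0.24 ± 0.095 without WT replicate 4 and KO replicate 3. At the other times WT and KO were at 29.3 to 32.7 and 32.7 to 46.4 CPM at 0 h, 56.5 to 59.3 and 56.4 to 75.3 CPM at 3 h, 36.8 to 56.3 and 43.9 to 59.9 CPM at 12 h, and 37.6 to 53.2 and 38.6 to 52.9 CPM at 24 h. The genotypes met without crossing at 0 h and overlapped at the other 3 times. Rab9 is the only member on the X chromosome, and WT replicate 4 and KO replicate 3 were almost without Xist. Sex was not tested as a factor.

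Rab8b before LPS was at 140.5, 138, 138 and 145 CPM in WT and 164, 162, 163 and 160.1 CPM in KO, without overlap. The log2 difference was 0.23 ± 0.064 at 0 h (edgeR adjusted p = 0.36) and 0.26 ± 0.084 at 24 h (edgeR adjusted p = 0.375). Rab34 before LPS was at 10.9, 10.3, 12.6 and 10.5 CPM in WT and 14.5, 16.4, 12.9 and 16.4 CPM in KO, again without overlap. Its log2 difference was 0.46 ± 0.13 at 0 h (edgeR adjusted p = 0.36), and 0.45, 0.37, 0.46 and 0.55 at the later times, where it was called at none. The neutrophil, monocyte and macrophage markers also differed with genotype at some times. The 8 macrophage markers summed to 5840 to 6270 CPM in WT and 5410 to 5620 CPM in KO at 6 h. At 24 h they summed to 5980 to 7580 CPM in WT and 5540 to 5860 CPM in KO, and at 0, 3 and 12 h the sums overlapped. They include Lyz2, the locus that carries Cre in KO, with a mean of 3080 CPM in WT and 2280 CPM in KO at 6 h. The part of Lyz2 in these sums was not tested. Of the 10 neutrophil markers, 3 were tested at 3 h, with 2 called lower in KO and a median log2 difference of -0.76. Of the 7 monocyte markers, 3 were called lower in KO at 3 h, with a median log2 difference of -0.48, and their summed level was 106 to 133 CPM for KO against 132 to 177 CPM for WT at 0 h, and 159 to 239 CPM against 233 to 263 CPM at 3 h. At 0, 3, 6 and 24 h, 0 of 7 monocyte markers had a positive log2 difference of KO over WT. The part of these markers in the RAB differences was not tested.

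KO values lay wholly above WT values for 5, 1, 5, 8 and 2 of the 44 members at 0, 3, 6, 12 and 24 h on TMM, where 1.82%, 4.06%, 3.93%, 2.74% and 2.57% of all genes did. On library totals the counts were 5, 1, 3, 1 and 2 (2.07%, 2.49%, 1.85%, 1.59% and 1.88% of all genes). Rab21, Rab34, Rab6b, Rab8b and Rab9 at 0 h and Rab34, Rab6b and Rab9 at 6 h did so on both scales, whereas of the 8 members at 12 h only Rab6a did. KO lay wholly below WT for 0 members at any time on TMM (3.07%, 2.28%, 2.92%, 1.94% and 1.85% of all genes), and for Rab32 and Rab40c at 6 h on library totals, where 6.10% of all genes did. The summed RAB level at 12 h was 7013 to 7231 CPM in WT and 7454 to 7673 CPM for KO without overlap on TMM. As shares of the library these were 0.655% to 0.694% and 0.691% to 0.704%, which overlap. At 0 h and 24 h the TMM sums overlapped and the shares did not. The shares were 0.585% to 0.607% in WT and 0.608% to 0.643% in KO at 0 h. At 24 h they were 0.672% to 0.686% in WT and 0.688% to 0.712% in KO. Whether the response to LPS itself differed was tested as an interaction over 0 h and each later time. edgeR called 0 members at each of the 4 times (0.0%, 0.0%, 0.0% and 0.00818% of all genes), and DESeq2 called 0 as well. At an unadjusted p under 0.05 there were 1, 2, 0 and 1 members, where 2.81%, 4.37%, 3.26% and 3.88% of all genes passed.

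**Figure D5:**
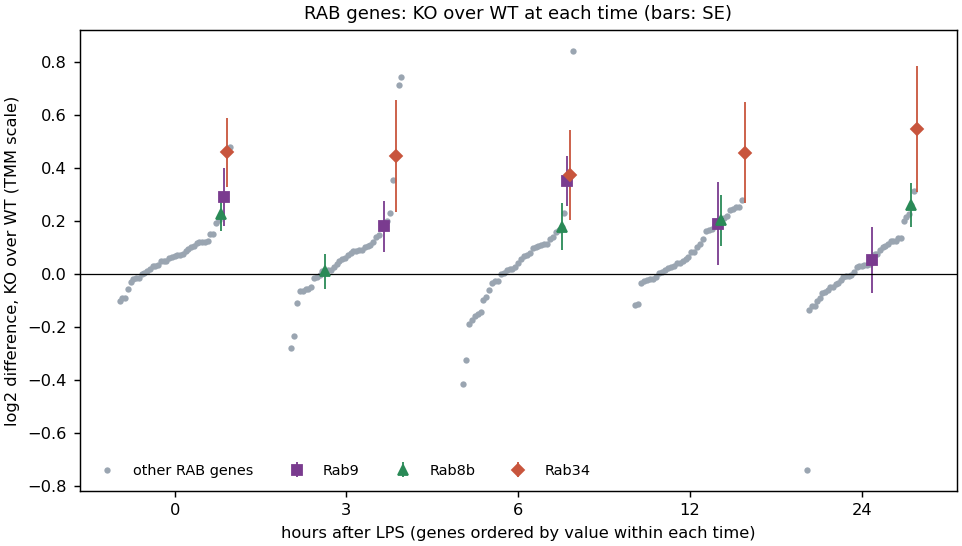
Log2 difference of KO over WT (TMM) of every tested RAB gene at 0, 3, 6, 12 and 24 h, with Rab9, Rab8b and Rab34 marked and their SE drawn as bars (n = 4 per genotype and time). Most genes lie within 0.3 of 0, none passed the adjusted threshold in edgeR, and the side of 0 of the smaller differences depends on the scaling.

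The proteins that load, unload and use RABs changed in both directions. In WT at 6 h, 1 of 8 escort, GDI and prenylation genes was called higher and 4 lower (0 and 8 on library totals). Of 29 tested GEF genes, 10 were called higher and 9 lower (9 and 17), of 32 GAP genes 7 and 18 (4 and 24), and of 41 effector genes 11 and 18 (6 and 29). The same comparison called 31.0% of all genes higher and 37.1% lower with TMM, and 17.6% and 63.9% on library totals. At 24 h the TMM counts were 2 and 3, 11 and 4, 11 and 10, and 20 and 12 for these 4 groups, and 1 and 6, 9 and 10, 9 and 16, and 12 and 16 on library totals, where 22.7% of all genes were higher and 49.2% lower.

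Among the lipid-attachment genes, Chml, an escort protein, fell by 1.14 on the log2 scale at 6 h in WT, from a mean of 20.4 to 8.89 CPM. Chm, the other escort protein, went from 49.7 to 59.1 CPM with TMM, a log2 change of 0.29 that turned to -0.22 on library totals. Among GEFs, Rin2, which activates RAB5, rose by 2.23, from 116 to 532 CPM. Rab3il1, which acts on RAB8 and RAB3A, fell by 3.01, from 56.9 to 6.89 CPM. Larger still, Dennd6b rose by 3.41, from 1.06 to 11.1 CPM, and Dennd2c fell by 3.43, from 12.6 to 1.09 CPM. Rin2 was also called higher in KO than in WT at 6 h, by 0.30 ± 0.067 (edgeR adjusted p = 0.0433). Madd, a GEF of RAB3 and RAB27, was called lower there, at -0.65 ± 0.15 (edgeR adjusted p = 0.0433). The same comparison called 88 genes higher and 18 lower of 10518 tested with TMM, and 46 and 29 on library totals. The values of Rin2 and Madd on library totals or with a replicate left out are not given here, so whether the calls hold there is not shown. Both come from the regulator lists above. The numbers of regulators tested and called in this comparison are not given either.

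Among GAPs, Tbc1d2, which acts on RAB7, fell by 4.21, from 22.9 to 1.2 CPM, and Tbc1d13, which acts on RAB35, rose by 2.25, from 28.6 to 133 CPM. Among effectors, Mical1 fell by 2.86, from 38.4 to 5.06 CPM, and Appl2, an adaptor of RAB5 endosomes, by 2.58, from 51.4 to 8.43 CPM. Rab11fip1, which links RAB11 to recycling endosomes, rose by 3.32, from 5.56 to 54.7 CPM. For scale, the largest change of a tested RAB gene at this time was the 2.06 of Rab20.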

How the data were processed

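The table that the authors deposited holds expected counts per gene, without normalization, for all 40 libraries. The submitters' processing notes name RSEM 1.3.3, UMI-tools 1.1.2, STAR 2.7.10a, cutadapt 3.7, FastQC 0.11.9 and the build GRCm39, with no role or order. The sources used here do not give settings, annotation release or strand handling. The expected counts were whole numbers already, so rounding them changed nothing.

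Symbols came from GENCODE vM21 (52029 of 57010 identifiers). Tests used edgeR 4.0.16 in R 4.3.3: TMM, filterByExpr with a minimum count of 10, robust quasi-likelihood fits, a prior count of 0.125 and Benjamini-Hochberg adjustment over all genes tested, at 0.05. Each genotype's 20 libraries were fitted for LPS against 0 h and 24 h against 3 h, 8 libraries of a time for KO against WT, and 16 for interactions. The SE was taken as the size of the log2 change divided by the root of its F statistic. The code was tested on simulated data. Alternatives were DESeq2 1.42.0, library totals, no filter, each replicate left out, a replicate block, 1 fit of all libraries and other limits for membership, and, added after seeing the data, leaving out WT replicate 4 and KO replicate 3 together and another pseudocount for ratios.

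No replicate pair of a group looked like 1 library deposited more than once (chi-square per degree of freedom of 2.34 to 18.9 over 60 pairs), which does not show independence. The labels call them biological replicates, and libraries of different times may share an animal, so p-values across times may be affected. Counting error is largest for genes of few counts. Promoters are from RefSeq on GRCm38.p6. The members, roles, regulator lists and tests were chosen with earlier results of these data known. The members described library by library are Rab5a, Rab7, Rab32 and Rab20, the 5 highest and 5 lowest WT changes among called members with a mean of 5 CPM or more, and the 3 members with the smallest unadjusted p between genotypes.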

Additional observations from a re-analysis of the deposited data

Results flagged for a closer look

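In 9 of 150 groups of 4 libraries, over 15 RAB genes and 10 groups, 1 library stood apart from its 3 partners by more than Dixon's critical ratio of gap to range. Chance flags about 1 in 20 such groups. WT replicate 4 held 4 of them: Rab20 before LPS was at 17.9 CPM against 15.2 to 15.7 in its partners, Rab7b before LPS at 568 CPM against 500 to 504, Rab3a at 6 h at 4.49 CPM against 2.01 to 2.14, and Rab9 at 6 h at 67.4 CPM against 83.7 to 84.4. The libraries of WT replicate 4 are among those almost without Xist, and Rab9 lies on the X chromosome. Any part of sex in these values was not tested.

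In KO, Rab7 at 3 h was at 398 CPM in replicate 1 against 426 to 431. Rab3d at 12 h was at 27.6 CPM in replicate 1 against 33.1 to 33.6. Replicate 4 was high in Rab32 at 24 h, at 201 CPM against 151 to 158, and in Rab19 before LPS, at 6.41 CPM against 4.91 to 5.07. Rab8b at 24 h was at 224 CPM in WT replicate 2 against 189 to 195. No member moved up in every library of one genotype and down in every library of the other.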

How the results depend on the processing

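Library totals without TMM had the largest effect. They gave 7 higher and 18 lower members at 3 h in WT, 15 and 18 at 6 h, 13 and 11 at 12 h, and 16 and 10 at 24 h. In KO they gave 4 and 15, 12 and 19, 10 and 10, and 14 and 11. They turned the log2 change of Rab7 to -0.093, -0.078, -0.12 and -0.12 at the 4 times in WT and to -0.10, -0.11, -0.16 and -0.074 in KO. Rab11b became -0.24, -0.33 and -0.38 at 3, 6 and 12 h in WT and -0.32, -0.44 and -0.40 in KO. Rab1a became -0.10 at 3 h and -0.10 at 24 h in WT, and -0.14 and -0.045 in KO. Rab5c at 3 h became -0.076 in WT and -0.049 in KO, Rab40c at 12 h -0.26 and -0.064, Rab21 in KO -0.074 at 3 h and -0.042 at 24 h, Rab3d at 24 h in WT -0.011 and Chm at 6 h in WT -0.22. The totals leave out TMM's factors, and no other cause was tested.

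Without the filter on low counts, 4 members were called lower at 3 h in KO (7 with it). KO against WT at 6 h gave 1 member, Rab9, with DESeq2 and 1 without the filter. Leaving out 1 replicate gave 18 to 21 higher and 4 to 7 lower at 3 h in WT, 25 to 28 and 7 at 6 h, 24 to 25 and 3 to 4 at 12 h, and 24 to 28 and 3 to 5 at 24 h. In KO the ranges were 11 to 20 and 3 to 5 (11 without KO replicate 2), 24 to 25 and 8, 26 to 29 and 3, and 22 to 26 and 4. From 3 h to 24 h they were 13 to 19 and 7 to 9 in WT, and 13 to 15 and 8 to 9 in KO. KO against WT and the interactions stayed at 0. Deviations from the group means correlated with a median of 0.117 between same-numbered WT libraries of different times (-0.0411 for different numbers) and 0.122 in KO (-0.0474), with 23 and 24 of 40 same-numbered pairs above 0.1. In each genotype 18 of 20 libraries correlated best with their own number, a hint from the data and not from the labels that a number marks a shared source. Same-numbered KO and WT libraries of a time had a median of -0.0863. As not every pair exceeded 0.1, the block is given only as an alternative. Under the replicate block 782 gene results held, 12 gained a call and 0 lost one, over all comparisons together. In the fits of KO against WT the block joined KO and WT libraries of the same number. The labels do not give that pairing, so those results do not bear on shared animals.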
